A study of Homo sapiens with 10 samples.

Results

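The genes described here are 10 members of the Hippo pathway and of its transcriptional output: the angiomotins AMOTL2, AMOTL1 and AMOT, the target genes CYR61, CTGF and ANKRD1, the kinases LATS1 and LATS2, the LIM domain protein AJUBA and the transcription factor TEAD1. They were taken by symbol from the deposited count tables, in which CYR61 and CTGF stand for CCN1 and CCN2, and they make up 10 of 58676 genes. All 10 were among the 16936 genes that passed a filter on low counts, ANKRD1 only through the kinase libraries, where it was higher. They were chosen with the comparison of each kinase against the controls already known, so their values in those 2 comparisons are given as a description, and nothing is read from the calls counted among them. The libraries are RNA-seq of HEK293T, a line derived from human embryonic kidney and grown in DMEM with serum. Per the labels, 3 libraries came from cells that overexpressed BRSK2 for 24 h and 3 from cells that overexpressed BRSK1 for 24 h, kinases of the AMPK-related family. The controls were 2 libraries from cells overexpressing hcRED, a red fluorescent protein, for 24 h, and 2 Mock libraries, whose handling the labels do not describe further. The labels do not state that libraries of a group came from separate cultures, so each p-value reflects spread among these libraries alone, and that spread may be technical.

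As background, the Hippo pathway is a kinase cascade in which MST1 and MST2 activate LATS1 and LATS2, and the LATS kinases phosphorylate the coactivators YAP and TAZ and hold them outside the nucleus. Unphosphorylated YAP and TAZ enter the nucleus, bind TEAD factors on DNA and raise transcription of genes such as CYR61, CTGF, ANKRD1 and AMOTL2. Angiomotins bind YAP at junctions and on actin filaments, and AMOTL2 and LATS2 are themselves YAP targets, so the pathway contains negative feedback.

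Promoter sequences of AMOTL2, CTGF and ANKRD1 are shown because these are genes with higher counts under both kinases, and TEAD factors are known to act at the promoters of CTGF and ANKRD1. They are the 250 bases before the start of transcription in RefSeq (GRCh38.p14), written 5′ to 3′ on the gene's strand, and all of these genes lie on the minus strand. Capitals mark the TEAD motif GGAATG or its reverse complement CATTCC and, in ANKRD1, the AP-1 motif TGANTCA, which does not overlap a TEAD motif.
AMOTL2, chr3:134374448-134374697: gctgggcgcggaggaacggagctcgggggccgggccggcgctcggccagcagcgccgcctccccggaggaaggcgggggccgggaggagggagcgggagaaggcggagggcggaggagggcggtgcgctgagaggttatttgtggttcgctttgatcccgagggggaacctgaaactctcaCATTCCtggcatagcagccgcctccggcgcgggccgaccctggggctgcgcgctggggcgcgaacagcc
CTGF, chr6:131951373-131951622: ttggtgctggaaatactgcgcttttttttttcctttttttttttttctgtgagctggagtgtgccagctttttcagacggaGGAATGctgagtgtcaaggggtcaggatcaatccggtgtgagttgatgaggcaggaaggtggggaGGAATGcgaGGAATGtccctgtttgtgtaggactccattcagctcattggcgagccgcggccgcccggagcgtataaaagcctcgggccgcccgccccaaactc
ANKRD1, chr10:90921088-90921337: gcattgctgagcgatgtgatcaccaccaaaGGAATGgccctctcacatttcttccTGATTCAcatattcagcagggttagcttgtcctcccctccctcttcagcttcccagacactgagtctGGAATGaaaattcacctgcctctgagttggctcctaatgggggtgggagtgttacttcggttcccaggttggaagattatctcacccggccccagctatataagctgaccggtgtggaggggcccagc
The motifs were searched on both strands in windows of 300 bases, 250 before and 50 after each start. Of the 10 genes, 8 had such a window (CYR61 and TEAD1 had none), and AMOTL2, LATS1 and AJUBA had more than 1 start. CTGF held the TEAD motif 3 times, ending 164, 99 and 90 bases before its start, and ANKRD1 held it 2 times, ending 215 and 123 bases before its start. AMOTL2 held it 1 time, on the reverse strand and ending 64 bases before the start shown, and its other window, chr3:134375368-134375667, had no match. In all, 5 of the 8 genes had the TEAD motif in some window (LATS2 and AJUBA were the other two), and 2 of 8 had the AP-1 motif (ANKRD1 and LATS1). The TEAD motif was present in 14% of all 35116 windows in the table and the AP-1 motif in 7.71%. A CArG box, the site of serum response factor, was present in 1.29% of all windows and in 0 of the 8 genes. These shares are per window, whereas the genes were counted with a match in any of their windows, so the units differ. A match only describes the letters in the window.

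The libraries held between 16516116 and 24304302 counts. The overexpressed transcripts took 6.99 to 10.4% of all counts in the BRSK2 libraries, where BRSK2 stood at 72750 to 108888 CPM, against 69.9 to 97.7 CPM in all other libraries. BRSK1 stood at 46186 to 70223 CPM in the BRSK1 libraries, against 10.2 to 29.5 CPM elsewhere. The cells carried the markers chosen for HEK293T, with a summed level of 411 to 423 CPM in BRSK2, 387 to 395 in BRSK1, 316 to 333 in hcRED and 382 to 396 in Mock libraries. Most of this sum came from VIM, NEFM and NEFL, while PAX2 held 2.43 to 5.73 and LHX1 4.48 to 6.72 CPM over all libraries. Among the markers of other cell types, PTPRC was at 0 in every library, and the blood list summed to at most 0.164 CPM in BRSK2, 0.0443 in BRSK1 and 0 in hcRED and Mock libraries. The hepatocyte list summed to at most 0.602 CPM and the endothelial list to at most 0.379 CPM in any library. Fibroblast markers summed to 1.14 to 3.51 CPM in BRSK2, 1.41 to 3.69 in BRSK1, 2.64 to 3.72 in hcRED and 2.17 to 2.38 in Mock libraries, of which COL3A1 held 1.02 to 3.03 CPM, and their part in the results was not tested. The keratin genes KRT5 and KRT14, by contrast, stood at 29.3 and 32.7 CPM in BRSK1 replicate 1. The squamous markers summed to 2.61 to 12 CPM in BRSK2, 3.28 to 62.0 in BRSK1, 7.11 to 13.4 in hcRED and 5.05 to 13.4 in Mock libraries, while TP63 had at most 2 counts. The part of that library in any result was not tested beyond leaving it out. With BRSK2, 808 genes were called higher and 517 lower in all. Under scaling by library totals, which shifted the median of all genes by -0.10 on the log2 scale, these counts were 494 and 2507.

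The angiomotins were described first, because AMOTL2 had the clearest separation between groups. AMOTL2, a junctional scaffold that binds YAP (ENSG00000114019; hg38 chromosome 3, minus strand, 134355874 to 134375479; protein coding), had 27.4, 37.7 and 44.3 TMM-scaled CPM (counts scaled to a common library size) in BRSK2 libraries and 28.5, 30.7 and 34.2 CPM in BRSK1 libraries. It had 18.9 and 17.9 CPM in hcRED libraries and 14.3 and 13.7 CPM in Mock libraries, from 276 to 824 raw counts per library. Every kinase library was above every control library, the BRSK2 and BRSK1 libraries overlapped, and both hcRED libraries were above both Mock libraries. The group means were 36.5 ± 8.52 CPM for BRSK2 and 31.1 ± 2.87 CPM for BRSK1 libraries (SD, n = 3 each), and 18.4 ± 0.687 CPM for hcRED and 14.0 ± 0.439 CPM for Mock libraries (SD, n = 2 each). Against the mean of hcRED and Mock, the level was 2.27-fold higher with BRSK2 (log2 fold change 1.18 ± 0.12 SE) and 1.94-fold higher with BRSK1 (0.96 ± 0.12). In bulk RNA, more cells that express a gene and more of its RNA per cell cannot be told apart.

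The other angiomotins showed no such separation. AMOTL1, a paralog with similar junctional roles (ENSG00000166025; chromosome 11, plus strand, 94706431 to 94876753), had 101.7, 88.7 and 95.5 CPM in BRSK2 libraries and 92.7, 88.6 and 89.5 in BRSK1 libraries. The controls lay in the same range, at 95.5 and 82.5 CPM in hcRED and 95.1 and 103.2 CPM in Mock. The log2 fold change was 0.02 ± 0.07 with BRSK2 and -0.06 ± 0.07 with BRSK1, and the sign turned with BRSK2 under library totals, against Mock alone and without BRSK2 replicate 1, hcRED replicate 3 or Mock replicate 2, and with BRSK1 against hcRED alone. AMOT, which binds YAP and actin filaments (ENSG00000126016; chromosome X, minus strand, 112774503 to 112840815), had 1031, 797 and 793 CPM in BRSK2 libraries and 914, 823 and 785 in BRSK1 libraries, against 750 and 552 CPM in hcRED and 880 and 1053 CPM in Mock. All 6 kinase libraries lay above both hcRED libraries and below the higher Mock library. AMOT stood at 0.14 ± 0.13 with BRSK2 and 0.08 ± 0.13 with BRSK1 on the log2 scale, and the sign turned with both kinases against Mock alone and with BRSK1 without hcRED replicate 3. Per kilobase of the deposited gene length, AMOT was the most abundant of the 10 genes, with an average of 103 CPM in BRSK2, 98.9 in BRSK1, 76.6 in hcRED and 114 in Mock libraries. AMOTL2 averaged 6.10 CPM per kilobase in BRSK2, 5.2 in BRSK1, 3.08 in hcRED and 2.34 in Mock, and AMOTL1 averaged 9.49 in BRSK2, 9.0 in BRSK1, 8.87 in hcRED and 9.88 in Mock.

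**Figure D1:**
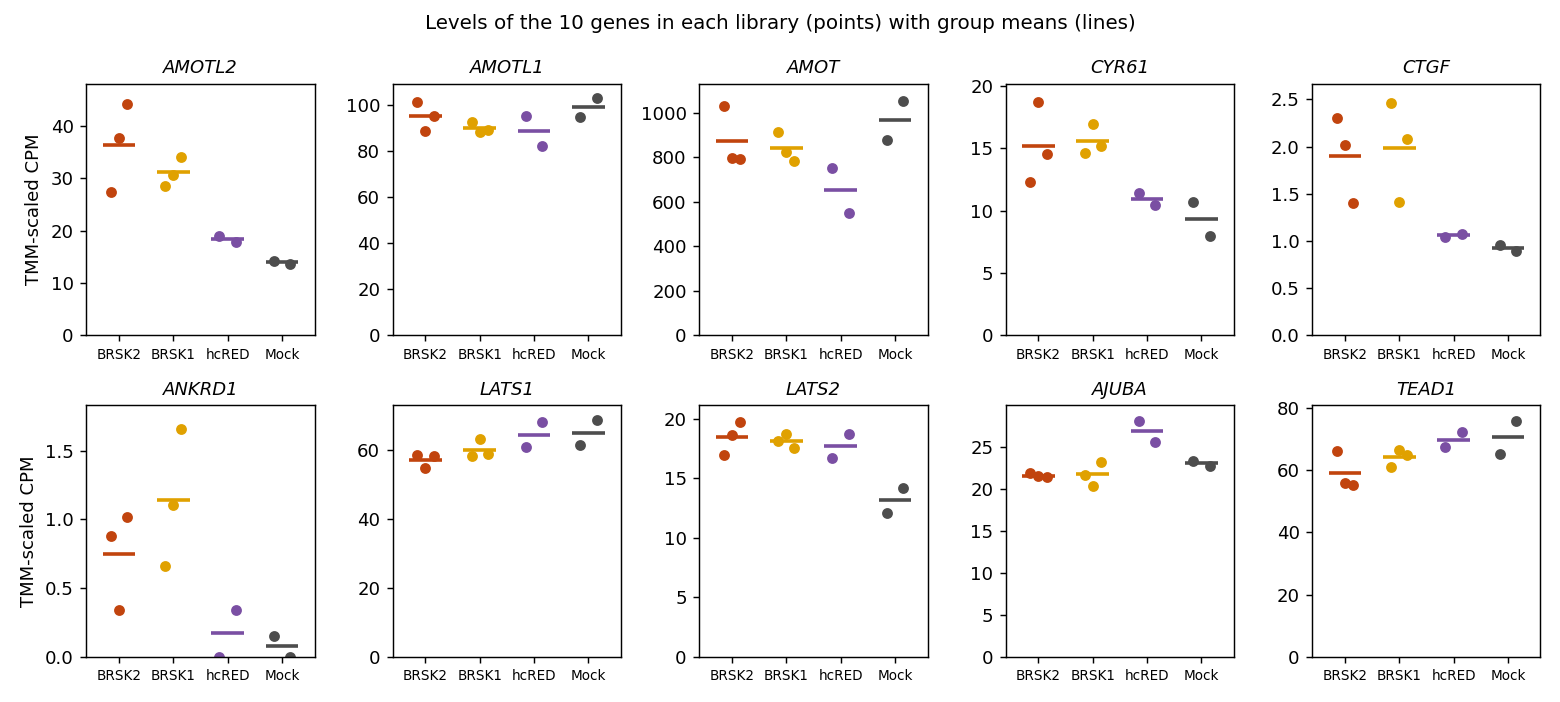
TMM-scaled CPM of each of the 10 genes in each library, by group (BRSK2, BRSK1, hcRED, Mock), as points with the group mean as a line. Every BRSK2 and BRSK1 library lies above every control library for AMOTL2 and CYR61, whereas AMOT is lowest in the hcRED libraries.

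The YAP/TAZ targets were next. CYR61, a matricellular signalling protein (ENSG00000142871; chromosome 1, plus strand, 85580761 to 85583962), had 12.3, 18.7 and 14.6 CPM in BRSK2 libraries and 14.6, 17 and 15.2 CPM in BRSK1 libraries. It had 11.5 and 10.5 CPM in hcRED libraries and 10.7 and 7.92 CPM in Mock libraries. Both kinase groups lay above all 4 controls and overlapped each other, and the hcRED and Mock values also overlapped. The log2 fold change was 0.59 ± 0.13 with BRSK2 and 0.62 ± 0.13 with BRSK1. CTGF, a related matricellular protein (ENSG00000118523; chromosome 6, minus strand, 131948176 to 131951373), had 2.30, 2.02 and 1.40 CPM in BRSK2, 2.46, 1.42 and 2.08 in BRSK1, 1.04 and 1.08 in hcRED and 0.96 and 0.89 CPM in Mock libraries, which are 18 to 52 raw counts. Every kinase library was above every control, and the kinases overlapped. The log2 fold change was 0.95 ± 0.29 with BRSK2 and 1.00 ± 0.29 with BRSK1.

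ANKRD1, a nuclear ankyrin-repeat protein of striated muscle and a widely used YAP readout (ENSG00000148677; chromosome 10, minus strand, 90912096 to 90921276), had very few counts. There were 16, 7 and 16 raw counts in BRSK2 libraries, 14, 25 and 40 in BRSK1 libraries, 0 and 7 in hcRED libraries and 3 and 0 in Mock libraries, with 39, 79 and 10 counts in BRSK2, BRSK1 and all control libraries. Both kinase groups were above the controls, but the lowest BRSK2 library, at 0.344 CPM, was nearly level with the highest control library, at 0.343 CPM. The fitted log2 fold changes, 2.63 ± 0.73 with BRSK2 and 3.28 ± 0.68 with BRSK1, depend on the prior count of the fit. Without hcRED replicate 3, which held 7 of the 10 control counts, they were 5.05 and 5.69. Of the 10 genes, 6 had BRSK2 libraries fully apart from all 4 controls, higher for AMOTL2, CYR61, CTGF and ANKRD1 and lower for LATS1 and AJUBA. Among all tested genes 17.3% were fully apart in that comparison, 9.09% higher and 8.2% lower. For BRSK1, 4 were fully apart, all higher, next to 18.4% of all tested genes in either direction and 9.93% higher. ANKRD1 is in both counts, but it passed the filter only through the kinase libraries, so its separation is no test.

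The LATS kinases and the remaining genes differed by small amounts. LATS1, a kinase that phosphorylates YAP (ENSG00000131023; chromosome 6, minus strand, 149658153 to 149718256), had 58.4, 54.6 and 58.1 CPM in BRSK2, 58.2, 63.0 and 58.7 in BRSK1, 60.6 and 67.9 in hcRED and 61.2 and 68.6 CPM in Mock libraries. All BRSK2 libraries were below all controls, while BRSK1 libraries overlapped them. The log2 fold change was -0.18 ± 0.07 with BRSK2 and -0.11 ± 0.07 with BRSK1. LATS2, its paralog (ENSG00000150457; chromosome 13, minus strand, 20973032 to 21061547), had 17, 18.6 and 19.7 CPM in BRSK2, 18.1, 18.7 and 17.5 in BRSK1, 16.7 and 18.7 in hcRED and 12.1 and 14.2 CPM in Mock libraries. The kinase libraries overlapped the hcRED libraries, and both sets were above Mock. The log2 fold change was 0.27 ± 0.10 with BRSK2 and 0.25 ± 0.10 with BRSK1.

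AJUBA, a LIM domain protein that binds LATS kinases (ENSG00000129474; chromosome 14, minus strand, 22971174 to 22982642), had 21.9, 21.5 and 21.4 CPM in BRSK2, 21.6, 20.3 and 23.2 in BRSK1, 28.1 and 25.5 in hcRED and 23.3 and 22.7 CPM in Mock libraries. The BRSK2 libraries lay below all controls, the BRSK1 libraries overlapped Mock, and hcRED was highest. Its log2 fold change was -0.20 ± 0.09 with BRSK2 and -0.19 ± 0.08 with BRSK1. TEAD1, the DNA-binding partner of YAP (ENSG00000187079; chromosome 11, plus strand, 12674591 to 12944483), had 66.1, 55.9 and 55.3 CPM in BRSK2, 61.2, 66.6 and 65.0 in BRSK1, 67.6 and 72.1 in hcRED and 65.1 and 76.0 CPM in Mock libraries. BRSK2 replicates 2 and 3 and BRSK1 replicates 1 and 3 were below every control, and the other kinase libraries overlapped the controls. The log2 fold change was -0.25 ± 0.07 with BRSK2 and -0.13 ± 0.07 with BRSK1.

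**Figure D2:**
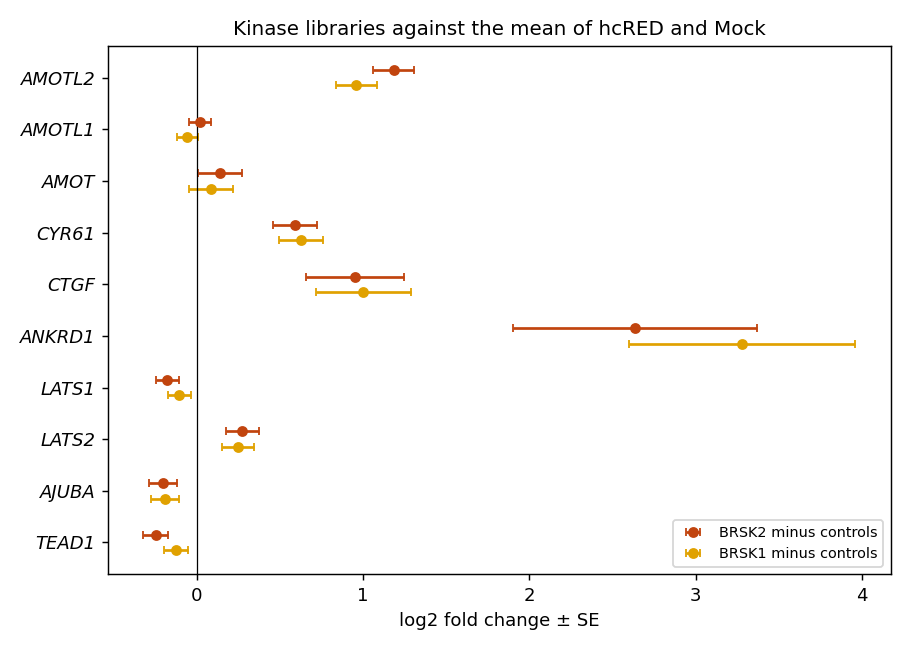
Log2 fold change with its SE for each of the 10 genes, for BRSK2 and BRSK1 (colours) against the mean of hcRED and Mock, with genes down the vertical axis. ANKRD1 has the largest values and the widest errors, with 2.63 ± 0.73 for BRSK2 and 3.28 ± 0.68 for BRSK1, and AMOTL2 follows at 1.18 ± 0.12 and 0.96 ± 0.12.

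By count, 5 of the 10 genes passed edgeR's quasi-likelihood threshold (adjusted p under 0.05 over all tested genes) with BRSK2, 4 higher and TEAD1 lower, where 7.82% of all tested genes were called (4.77% higher, 3.05% lower). With BRSK1, 4 passed, all higher, where 6.43% were called (3.77% higher, 2.66% lower). The median log2 fold change of the 10 genes was 0.20 with BRSK2 and 0.17 with BRSK1, next to a median of 0.00 for all genes in both. Nothing is read from these counts, since the genes were chosen on this contrast. For BRSK2 the count was 2 without BRSK2 replicate 2 or 3, hcRED replicate 1 or Mock replicate 3, and 3 without BRSK1 replicate 1 or 3 or hcRED replicate 3. For BRSK1 it was 2 without BRSK1 replicate 3, and under library totals 4 were higher and 3 lower with BRSK2. Over the 23 alternatives the log2 fold change of AMOTL2 ran from 0.98 to 1.38 with BRSK2 and from 0.76 to 1.16 with BRSK1. That of CYR61 ran from 0.41 to 0.72 with BRSK2 and from 0.51 to 0.74 with BRSK1, and that of CTGF from 0.80 to 1.12 and from 0.82 to 1.19. DESeq2 and limma-voom did not call CTGF with either kinase, and its call with BRSK2 was lost whichever BRSK2 library was left out. The CTGF call was also lost with both kinases without BRSK1 replicate 1 or 3, and against hcRED alone or Mock alone. TEAD1 was not called with BRSK2 by limma-voom, without robust estimation, or in the fit restricted to the compared groups. Its call was also lost without BRSK2 replicate 2 or 3 or BRSK1 replicate 1 or 3, and against hcRED alone or Mock alone. Without BRSK1 replicate 1, the library with the keratin counts, AMOTL2 stood at 1.02 with BRSK1, CYR61 at 0.67, CTGF at 0.82 and ANKRD1 at 3.55. In the authors' deposited table for BRSK2, the log2 fold change was 1.16 for AMOTL2 and 0.59 for CYR61. The authors' deposited table for BRSK1 gave 0.96 for AMOTL2, 0.63 for CYR61 and 0.95 for CTGF. Of the genes called here, CTGF, ANKRD1 and TEAD1 were not among those the authors listed for BRSK2, nor ANKRD1 among those for BRSK1.

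The control that was used mattered for several of these genes. Both kinases share the control libraries, so their values are given side by side. Against hcRED alone, AMOTL2 stood at 0.98 ± 0.15 with BRSK2 and 0.76 ± 0.15 with BRSK1, and against Mock alone at 1.38 ± 0.16 and 1.16 ± 0.15. LATS2 stood at 0.06 ± 0.12 with BRSK2 and 0.03 ± 0.12 with BRSK1 against hcRED, but at 0.49 ± 0.12 and 0.46 ± 0.12 against Mock. AMOT stood at 0.42 ± 0.16 with BRSK2 against hcRED and -0.15 ± 0.16 against Mock. AJUBA stood at -0.31 ± 0.10 with BRSK2 against hcRED and -0.09 ± 0.10 against Mock. Against hcRED alone 1 of the 10 genes, AMOTL2, was called with each kinase, where 3.58% of all genes were called with BRSK2 and 0.785% with BRSK1. Against Mock alone 3 were called with BRSK2 (AMOTL2, CYR61 and LATS2; 5.5% of all genes) and 4 with BRSK1 (these and ANKRD1; 6.69%).

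**Figure D3:**
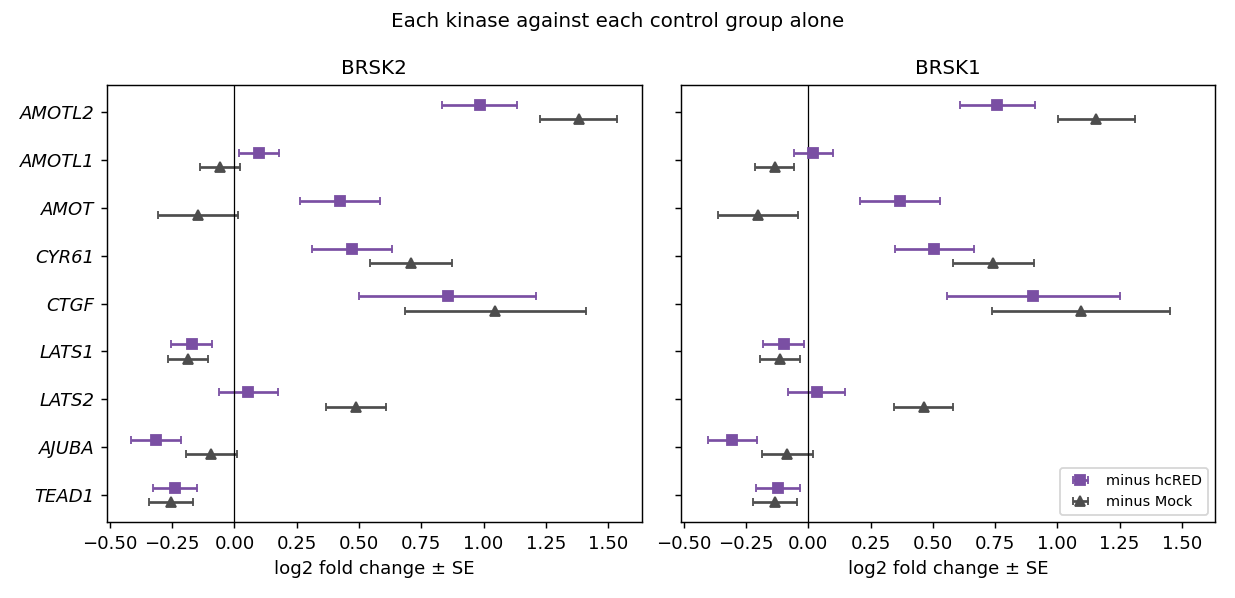
Log2 fold change with its SE of each gene except ANKRD1, for BRSK2 and BRSK1 (panels), against hcRED alone (squares) and Mock alone (triangles). AMOTL2 lies above 0 in all 4 comparisons, whereas LATS2 lies near 0 against hcRED (0.06 ± 0.12 with BRSK2) and at 0.49 ± 0.12 against Mock.

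The kinases were then compared with each other. edgeR's quasi-likelihood test called 0 of the 10 genes between BRSK2 and BRSK1, where it called 0.348% of all tested genes, and 0 reached an unadjusted p under 0.05, next to 12.4% of all tested genes. DESeq2 and limma-voom also called 0. AMOTL2 was at 0.22 ± 0.13 (log2, BRSK2 over BRSK1; adjusted p = 0.487), with BRSK2 replicate 1 the lowest and BRSK2 replicate 3 the highest of the 6 kinase libraries. It ran from 0.07 without BRSK2 replicate 3 to 0.39 without BRSK2 replicate 1, and its adjusted p ran from 0.0676 to 0.891 over the 20 alternatives. ANKRD1 was at -0.65 ± 0.58 (adjusted p = 0.702), CYR61 at -0.03 ± 0.14 (0.958), CTGF at -0.05 ± 0.29 (0.973) and TEAD1 at -0.12 ± 0.08 (0.563). The other 5 genes lay between -0.07 for LATS1 and 0.08 for AMOTL1, with adjusted p from 0.710 to 0.984. The median of the 10 genes was -0.02, next to 0.00 for all genes. These p-values do not show that the kinases act alike.

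Between hcRED and Mock, the 2 kinds of control, edgeR's quasi-likelihood test called 0 of the 10 genes, where it called 0.0295% of all tested genes. At an unadjusted p under 0.05 there were 3, next to 8.95% of all tested genes, and DESeq2 and limma-voom each called 0. AMOT, at 750 and 552 CPM in hcRED and 880 and 1053 CPM in Mock, was at -0.57 ± 0.18 (log2, hcRED over Mock; adjusted p = 0.382), lower in 2 of 2 hcRED libraries. LATS2 was at 0.43 ± 0.13 (adjusted p = 0.280) and AMOTL2 at 0.40 ± 0.17 (adjusted p = 0.513), each higher in both hcRED libraries. AJUBA was at 0.22 ± 0.11 (adjusted p = 0.561), CYR61 at 0.24 ± 0.18 (0.739), CTGF at 0.19 ± 0.41 (0.940) and ANKRD1 at 1.11 ± 1.29 (0.849). LATS1 and TEAD1 were each at -0.01 and AMOTL1 at -0.16. The libraries of hcRED and Mock did not overlap for 40.3% of all tested genes.

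The rest of the pathway was read from 7 lists of 107 genes, of which 97 were not among the 10 and 93 of these were tested. With BRSK2, edgeR's quasi-likelihood test called 14 of the 93, 10 higher and 4 lower, next to 7.82% of all genes, and with BRSK1 it called 6, 3 higher and 3 lower, next to 6.43%. The 10 higher with BRSK2 include WWC3, which passed the filter on low counts only through the kinase libraries. The median log2 fold change was 0.01 with BRSK2 and 0.03 with BRSK1. With BRSK2 the count was 1 without BRSK2 replicate 3, 3 without hcRED replicate 1, 4 without BRSK2 replicate 2, 6 without Mock replicate 3 and 9 without hcRED replicate 3. With BRSK1 it was 0 without BRSK1 replicate 3, 1 without hcRED replicate 1, 2 without hcRED replicate 3, 3 without BRSK2 replicate 2 or Mock replicate 3, and 11 without BRSK2 replicate 1. Under library totals 4 of the 93 were higher and 19 lower with BRSK2. Against hcRED alone 4 were called with BRSK2 and 1 with BRSK1, and against Mock alone 7 with BRSK2 and 6 with BRSK1. DESeq2 called 15 with BRSK2 and 8 with BRSK1. The lists were chosen with earlier results of these data known.

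Of the YAP/TAZ target signature, 17 genes were not among the 10 and 16 were tested. With BRSK2 0 were higher and 1 fell, and with BRSK1 0 passed in either direction, with medians of 0.14 and 0.16. With BRSK2, 4 of the 16 had an unadjusted p under 0.05, next to 23.0% of all tested genes, DESeq2 called 2 and limma-voom 1. With BRSK1, 3 of the 16 had an unadjusted p under 0.05, next to 21.8% of all tested genes, and DESeq2 and limma-voom called 0. Their log2 fold changes ran from -0.63 to 1.15 with BRSK2 and from -0.43 to 0.72 with BRSK1. The lowest value was that of CCDC80 with both kinases (edgeR adjusted p = 0.109 with BRSK1). The one that fell was CCDC80, a secreted extracellular matrix protein, at -0.63 ± 0.17 with BRSK2 (adjusted p = 0.0221), where it had 5.59, 5.21 and 4.71 CPM, against 8.86 and 7.34 CPM in hcRED and 7.17 and 8.61 CPM in Mock. It no longer passed when BRSK2 replicate 2 (adjusted p = 0.0772) or 3 (0.131), hcRED replicate 1 (0.0943) or Mock replicate 3 (0.0817) was left out, nor against hcRED alone (0.0626) or Mock alone (0.0666).

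Among the coactivators and DNA-binding factors, 3 of 7 fell with BRSK2 and 1 with BRSK1 (medians -0.11 and -0.24). YAP1, the coactivator itself, had 45.2, 41.1 and 39.8 CPM in BRSK2, 42.6, 42.8 and 38.4 in BRSK1, 54.3 and 54.2 in hcRED and 49.1 and 50.5 CPM in Mock libraries. Every kinase library was below every control library. YAP1 fell by 0.30 ± 0.07 on the log2 scale under BRSK2 (adjusted p = 0.00971), and by 0.33 ± 0.07 under BRSK1 (adjusted p = 0.00751). With BRSK2 it no longer passed when BRSK2 replicate 2 (adjusted p = 0.0572) or 3 (0.0948) was left out, nor with BRSK1 when BRSK1 replicate 3 was (0.0797). It was also lost against Mock alone (0.0894 with BRSK2 and 0.0518 with BRSK1). WWTR1, which encodes TAZ, had 14.1, 13.7 and 16.4 CPM in BRSK2, against 18.4 and 18.9 in hcRED and 17.4 and 18.7 CPM in Mock. WWTR1 fell by 0.32 ± 0.10 with BRSK2 (adjusted p = 0.0462), a call that was lost whichever of the 10 libraries was left out (adjusted p from 0.0530 to 0.212) and against hcRED alone (0.101) or Mock alone (0.135), and was at -0.24 ± 0.10 with BRSK1 (adjusted p = 0.142).

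VGLL3, a TEAD cofactor, fell by 0.54 ± 0.14 with BRSK2 (adjusted p = 0.0231) and was at -0.24 ± 0.14 with BRSK1 (adjusted p = 0.334). It had 7.5, 5.75 and 5.79 CPM in BRSK2 libraries, against 7.59 and 8.81 CPM in hcRED and 9.54 and 11.3 CPM in Mock libraries, so that all BRSK2 libraries were below all controls, 1 of them by little. VGLL3 did not pass when BRSK2 replicate 2 (adjusted p = 0.126) or 3 (0.138), hcRED replicate 3 (0.0873) or Mock replicate 3 (0.0896) was left out, nor against hcRED alone (0.258). The TEAD1 paralogs did not pass with either kinase: TEAD2 was at -0.11 ± 0.10 with BRSK2, TEAD3 at 0.28 ± 0.11 and TEAD4 at 0.20 ± 0.08 (adjusted p = 0.577, 0.141 and 0.122). The difference between the kinases did not pass for VGLL3 (-0.31 ± 0.15, adjusted p = 0.426).

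Of the upstream kinases and adaptors, 2 of 19 rose with BRSK2. With BRSK1 edgeR called 0, and DESeq2 and limma-voom each called 1. In edgeR 6 of the 19 had an unadjusted p under 0.05, next to 21.8% of all tested genes. RASSF1, a scaffold that binds MST kinases, had 40.8, 57.8 and 60.2 CPM in BRSK2 and 43.2, 49.9 and 56.3 in BRSK1, against 37.9 and 46.8 in hcRED and 29.6 and 23.8 CPM in Mock. Its BRSK2 and hcRED libraries overlapped, and both lay above Mock. It rose by 0.65 ± 0.16 with BRSK2 (adjusted p = 0.0391), but did not pass against hcRED alone (0.430), nor with BRSK2 replicate 2 (0.157) or 3 (0.130), BRSK1 replicate 2 (0.0610), hcRED replicate 1 (0.0960) or Mock replicate 3 (0.125) left out. WWC3, a member of the KIBRA family of LATS activators, had 22, 11 and 13 raw counts in BRSK2, against 5 and 12 in hcRED and 2 and 2 in Mock, and was at 2.03 ± 0.53 (adjusted p = 0.0200). Of the controls, only hcRED replicate 3 exceeded the minimum count of the filter, so WWC3 was tested only because of the kinase libraries. As with ANKRD1, its rise is therefore no test, although the counts of called genes include it. Only BRSK2 replicate 1, at 1.20 CPM, was above 1 CPM, and WWC3 was not tested under the filter at 1 CPM. WWC3 did not pass against hcRED alone (adjusted p = 0.353), nor with BRSK2 replicate 1 (0.0681) or 3 (0.0749), hcRED replicate 1 (0.0819) or Mock replicate 2 (0.0533) or 3 (0.0704) left out. For both of these genes the hcRED libraries stood above the Mock libraries. With BRSK1, RASSF1 was at 0.57 (edgeR adjusted p = 0.0683) and WWC3 at 1.70 (0.0556).

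Of 5 LIM domain partners, 2 rose with BRSK2. With BRSK1 edgeR, DESeq2 and limma-voom called 0. In edgeR 3 of the 5 had an unadjusted p under 0.05, next to 21.8% of all tested genes. WTIP, a relative of AJUBA, had 16.1, 14.7 and 16.2 CPM in BRSK2, 12.5, 11.2 and 14.9 in BRSK1, 11 and 11.5 in hcRED and 9.84 and 9.65 CPM in Mock libraries. All BRSK2 libraries were above all controls. WTIP rose by 0.58 ± 0.11 with BRSK2 (adjusted p = 0.00253) and was at 0.30 ± 0.11 with BRSK1 (adjusted p = 0.109). Its call with BRSK2 held without each of the 10 libraries in turn (adjusted p from 0.00196 to 0.0275), and was lost against hcRED alone (0.0516). TRIP6, a LIM protein of focal adhesions and junctions that binds LATS kinases, had 93.5, 111.5 and 109.1 CPM in BRSK2, against 83.8 and 88.7 in hcRED and 92.2 and 79.7 CPM in Mock, and rose by 0.28 ± 0.07 (adjusted p = 0.0129). TRIP6 did not pass with BRSK2 replicate 2 (adjusted p = 0.0911) or 3 (0.106), hcRED replicate 1 (0.0653) or Mock replicate 3 (0.0667) left out, nor under library totals (0.0789) or against hcRED alone (0.0590). With BRSK1, TRIP6 was at 0.19 (edgeR adjusted p = 0.0960). AJUBA, of the same family as WTIP, stood lower in BRSK2 libraries than in controls, as given above.

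Polarity and junction partners had 2 of 17 higher with BRSK2, and 1 higher and 1 lower with BRSK1. LLGL1 and LLGL2, cortical polarity proteins of the Scribble module, rose with BRSK2 by 0.22 ± 0.06 (adjusted p = 0.0218) and 0.28 ± 0.08 (adjusted p = 0.0294). Neither passed when BRSK2 replicate 2 or 3, hcRED replicate 1 or 3 or Mock replicate 3 was left out, with adjusted p from 0.0614 to 0.0819 for LLGL1 and from 0.0550 to 0.140 for LLGL2, nor under library totals (0.213 and 0.134) or against Mock alone (0.150 and 0.204). With BRSK1, LLGL1 was at 0.18 (edgeR adjusted p = 0.0604) and LLGL2 at 0.06 (0.714). LIN7C, a PDZ scaffold, was at -0.07 with BRSK2 (0.693) and rose by 0.29 ± 0.09 with BRSK1 (adjusted p = 0.0475). MAGI1, a junctional scaffold, was at -0.14 with BRSK2 (0.216) and fell by 0.23 ± 0.07 with BRSK1 (adjusted p = 0.0462). Of the 10 fits that left out a library, LIN7C passed in 3 (without BRSK2 replicate 1 or 3 or Mock replicate 3) and MAGI1 in 2 (without BRSK2 replicate 1 or Mock replicate 2), with adjusted p up to 0.164 and 0.165 in the others. Neither passed against hcRED alone (adjusted p = 0.204 for LIN7C and 0.230 for MAGI1) or Mock alone (0.0934 and 0.0640), nor LIN7C under library totals (0.0780). Of 15 members of STRIPAK, a phosphatase complex that acts on MST kinases, 2 rose with BRSK2, among them STRN4, a striatin scaffold subunit, by 0.26 ± 0.06 (adjusted p = 0.0125). With BRSK1 STRN4 was at 0.20 (edgeR adjusted p = 0.0567), and edgeR and limma-voom called 0 of the 15 and DESeq2 1. In edgeR 1 of the 15 had an unadjusted p under 0.05, next to 21.8% of all tested genes. STRN4 did not pass without BRSK2 replicate 3 (adjusted p = 0.111) or hcRED replicate 1 (0.0790), nor under library totals (0.0993) or against hcRED alone (0.0891).

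Targets of serum response factor and its MRTF partners, a list that also holds CYR61 and CTGF, had 2 of 14 tested higher with BRSK2 and 2 higher and 1 lower with BRSK1. SRF itself had 153.3, 148.1 and 148.0 CPM in BRSK2, 132.5, 127.9 and 130.9 in BRSK1, 132.6 and 131.1 in hcRED and 132.2 and 131.7 CPM in Mock libraries, with all BRSK2 libraries above all others. It rose by 0.18 ± 0.05 with BRSK2 (adjusted p = 0.0349), a call that held without any 1 of the BRSK1 libraries but not without a BRSK2, hcRED or Mock library (adjusted p up to 0.117) and was lost against each single control and under library totals. ACTA2, smooth muscle actin, had 24, 39 and 27 raw counts in BRSK2, 24, 36 and 39 in BRSK1, 24 and 27 in hcRED and 7 and 8 in Mock libraries. It rose by 1.28 ± 0.32 (adjusted p = 0.0169) under BRSK2 and by 1.09 ± 0.32 (adjusted p = 0.0419) under BRSK1, and did not pass against hcRED alone (0.585 with BRSK2 and 0.818 with BRSK1). With BRSK2 it did not pass without BRSK2 replicate 2 (0.0958) or 3 (0.0813) or hcRED replicate 1 (0.0552), and with BRSK1 it passed without BRSK2 replicate 1 or BRSK1 replicate 1 and in none of the other 8 such fits (adjusted p up to 0.183). CNN2, calponin 2, fell by 0.32 ± 0.08 with BRSK1 (adjusted p = 0.0205), lost without BRSK1 replicate 3 (0.163), hcRED replicate 1 (0.103) or Mock replicate 2 (0.0580). With hcRED as the sole control it also missed the threshold (0.297). TPM2, a tropomyosin, rose by 0.42 ± 0.12 with BRSK1 (adjusted p = 0.0380), a call that held without any 1 BRSK2 library or Mock replicate 2, but not without the other libraries (adjusted p up to 0.167), against hcRED alone (0.124) or Mock alone (0.135), or under library totals (0.0534). With BRSK2, TPM2 was at 0.34 (edgeR adjusted p = 0.0874) and CNN2 at -0.08 (0.620), and with BRSK1 SRF was at -0.02 (0.898). Between BRSK2 and BRSK1, and between hcRED and Mock, 0 of the 93 genes were called by edgeR. At an unadjusted p under 0.05 there were 18 between the kinases and 8 between the controls, next to 12.4% and 8.95% of all tested genes, while DESeq2 called 1 and 0 and limma-voom called 0 in both.

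**Figure D4:**
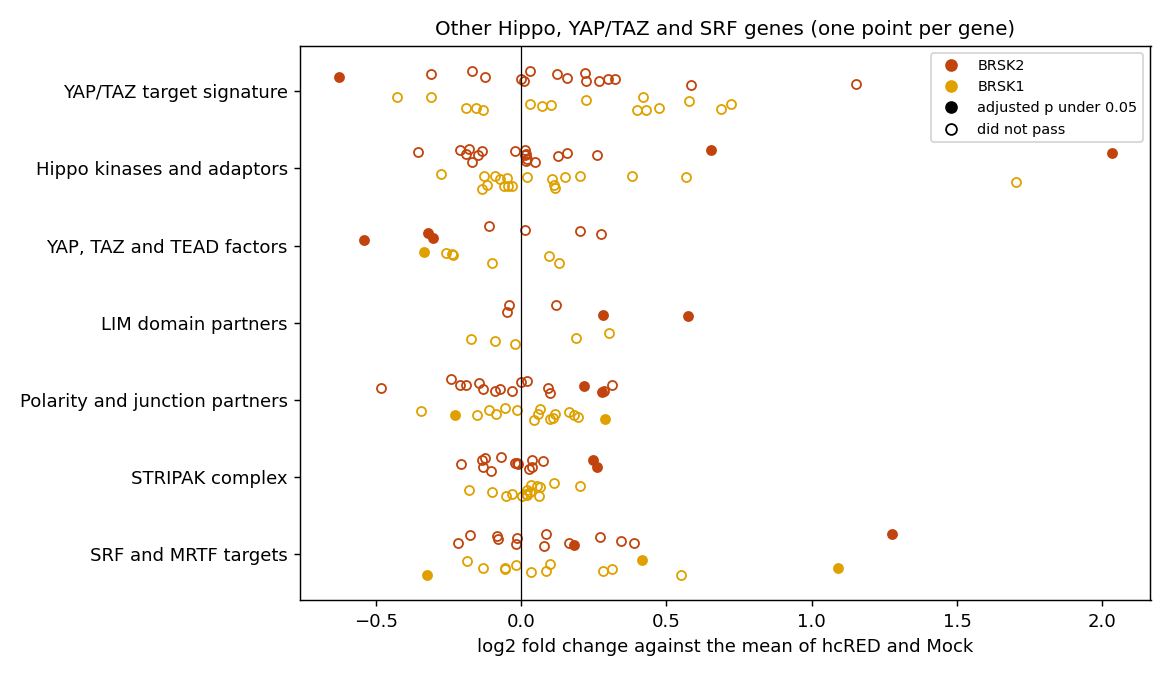
Log2 fold change of each tested pathway gene outside the 10, by list (vertical axis), for BRSK2 and BRSK1 (colours) against the mean of hcRED and Mock. Filled points passed the test, and a gene of several lists is drawn in each. With BRSK2, 10 are called higher and 4 lower, and with BRSK1 3 higher and 3 lower.

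The genes whose level followed AMOTL2 most closely over the 10 libraries were FANCE (Pearson r = 0.988), FANCG (0.985), ZFYVE27 (0.980), PLA2G6 (0.979) and SLC12A4 (0.978), out of 11078 genes with a mean of at least 5 CPM. The points share libraries and include both overexpression groups, so r describes these libraries only. FANCE averaged 44.0 CPM in BRSK2, 40.0 in BRSK1, 30.3 in hcRED and 25.9 in Mock, the order of groups seen for AMOTL2. As FANCE was picked by its correlation with AMOTL2, the shared order is no separate result. Those closest to CYR61 were DAP3 (0.961), ING4 (0.960), ORAOV1 (0.957), MUTYH (0.952) and XPC (0.948). Among the 10 genes themselves, AMOTL2 was closest to CYR61 (r = 0.878), then ANKRD1 (0.782), LATS2 (0.777) and CTGF (0.731), and most opposed to TEAD1 (-0.80) and LATS1 (-0.74).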

How the data were processed

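RNA from 10 HEK293T libraries was sequenced, with groups and replicate numbers taken from the labels. The submitters' processing notes name STAR, edgeR, limma and the build hg38; versions, the order of steps, the read counter and its strand setting were not given in the sources used here. Raw read counts per gene were deposited for each kinase with the 4 control libraries. In the control columns 0 genes differed between them, so both were joined into 58676 genes with 0 lines that name no gene and 0 unused count columns. No library pair was identical (0 pairs). Log2 CPM values of listed genes, also from the authors, served as a check. The authors' tables of results hold log2 fold changes, p-values, adjusted p-values and limma's scores, named so per the file headers; the scores were not used. The deposited gene length gave CPM per kilobase.

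Counts were tested with edgeR 4.0.16 under R 4.3.3, using TMM factors, filterByExpr (minimum count 10, minimum total 15) and robust glmQLFit and glmQLFTest, in 1 fit of 4 group means over all 10 libraries (biological coefficient of variation 8.06%). Contrasts were each kinase against the mean of hcRED and Mock, BRSK2 against BRSK1, and hcRED against Mock. P-values were adjusted by Benjamini-Hochberg over 16936 genes, with a threshold of 0.05, and each SE is the absolute log2 fold change over the square root of F. Depth was 16516116 to 24304302 counts per library. The largest count share of a gene overlapping one of the 10 was 0.386%.

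The 10 genes and the 7 pathway lists were chosen with earlier results of these data known. The text names the 10 genes, up to 6 called genes of each list by smallest p, and the 5 genes most correlated with AMOTL2 and with CYR61 in log2 CPM (prior count 2). One gene that the rule names is not reported here. TEAD2, TEAD3 and TEAD4 were named outside this rule, after their values were seen. Alternatives were RLE factors, library totals, scaling without the overexpressed kinases, other filters, DESeq2 1.42.0, limma-voom (limma 3.58.1), no robust estimation, a replicate block, each library left out, a fit restricted to the compared groups, and other uses of the controls (only hcRED, only Mock, or the 4 libraries merged). On simulated data of 16515 genes, BRSK2 against controls recovered 94.0% of genes with a simulated log2 change of 0.5 and BRSK2 against BRSK1 85.1%. False calls numbered 8 and 12. Changes were simulated only in genes above 5 CPM in the controls, with the same dispersion for all genes and no difference between hcRED and Mock. The recovery therefore does not apply to genes with few counts or a wider spread. Python 3.11.15 and matplotlib 3.10.9 drew the figures.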

Additional observations from a re-analysis of the deposited data

How the results depend on the processing

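The main fit did not pair libraries by the numbers that they share in their labels. Over 12 same-numbered pairs the correlation of deviations from the group means ran from -0.05 to 0.16. Over pairs with different numbers it ran from -0.14 to 0.10. In a group of 2 libraries the deviations mirror each other, so these ranges are not independent and cannot decide on pairing. Whether the number marks libraries handled together was not tested. The fit with the replicate number as a block called 2153 genes with BRSK2 (1325 without it), 1999 with BRSK1 (1089), 267 between the kinases (59) and 434 between hcRED and Mock (5), and 18, 2 and 5 pathway genes outside the 10 in the last 3 comparisons (6, 0 and 0 without it). With BRSK2 the block called 21 pathway genes outside the 10 (14 without it). Of the 10 genes it called 6 with BRSK2 (5 without it), 4 with BRSK1 and 0 between the kinases. Between hcRED and Mock it called 1, AMOT, lower in hcRED. For BRSK2 against the controls, library totals called 3001 genes and 23 pathway genes. DESeq2, limma-voom, no robust estimation, a fit restricted to the compared groups, and Mock alone each called 3 of the 10 genes. Against hcRED alone 606 genes, 1 of the 10 and 4 pathway genes were called, and against Mock alone 7 pathway genes. For BRSK1, DESeq2 called 2 of the 10, hcRED alone called 133 genes, 1 of the 10 and 1 pathway gene, and all 4 controls as 1 group called 3 pathway genes. Between the kinases, library totals called 206 genes (24 higher, 182 lower, against 39 and 20), no filter 188, DESeq2 190, no robust estimation 14 and only the groups compared 20, with 2, 2 and 1 pathway genes under library totals, no filter and DESeq2. Between hcRED and Mock, no filter called 128 genes and 2 pathway genes, the filter at 1 CPM 3, DESeq2 52, limma-voom 2, and no robust estimation and only the groups compared 0 each. Leaving out 1 library gave 346 to 2211 genes, 2 to 5 of the 10 and 1 to 19 pathway genes with BRSK2. It gave 204 to 1751, 2 to 4 and 0 to 11 with BRSK1, 7 to 64, 0 and 0 between the kinases, and 0 to 49, 0 and 0 to 1 between the controls. A group left with 1 library was assumed to vary like the others. The cause of these differences was not tested. No direction of a called value reversed in the alternatives run. Of the values of single genes, 141 lost a call, 39 gained one and 15 moved by more than the replicate spread. The 141 and 39 leave out the 10 genes against the controls, where calls were also lost and gained. With BRSK2, for example, DESeq2 did not call CTGF or ANKRD1. Some values without a call changed sign. ANKRD1, CTGF, WWC3 and ACTA2 rest on few counts.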
